A study of Mus musculus with 2 samples.

Results

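The variable (V) segments of the T cell receptor alpha and beta chains were followed through the lymphocytes of melanoma-bearing mouse lungs. The members are the genes whose symbol begins with Trav or Trbv and that collected 20 or more unique molecular identifiers (UMIs, each counting 1 captured transcript) over both libraries together. This rule took 33 of the 165 Trav and Trbv genes among 55357 features, namely 16 of 35 Trbv and 17 of 130 Trav genes. Usage was read over T cells, defined by 2 or more UMIs of Cd3d, Cd3e and Cd3g together, the invariant CD3 chains that carry the receptor.

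The study took live CD45+ cells by flow sorting from lungs of C57 mice with metastases of B16F10, a mouse melanoma line. The tumour cells of 1 group carried IRF7 with the C435A mutation (C435A library), and those of the other group carried wild-type IRF7 (wild-type library). IRF7 is a transcription factor of the type I interferon response, and the mutation is in the transplanted tumour cells as far as the labels say, where gene counts cannot show it. The labels name no mouse numbers, no days and no further treatment, and each group is 1 library, so every interval below covers counting error only and no difference between the libraries could be tested against a spread between mice.

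Each developing T cell joins 1 V segment, a joining segment and, in the beta chain, a diversity segment into a receptor chain that all its progeny keep. The junction, called CDR3, begins at the conserved cysteine near the end of the V segment and makes most of the contact with the presented peptide. Cells of an expanded clone therefore share their V segments, while 1 V segment is also shared by very many unrelated clones. Here a 3′ gene count gives the segment but not the junction, so usage could be skewed by clones that were not themselves identified.

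The 3 Trbv segments on which the comparisons turn are given here as the whole V exon, 5′ to 3′ on the plus strand of chromosome 6 in the GENCODE M21 annotation of GRCm38. Capitals mark the germline start of CDR3, from the last in-frame cysteine codon to the end of the exon. Trbv16 lies at chr6:41151933-41152230, Trbv14 at chr6:41135320-41135616 and Trbv12-2 at chr6:41119072-41119364. Trbv14 and Trbv16 were 64.4% identical over the exon, with a longest shared run of 9 bases.
Trbv16: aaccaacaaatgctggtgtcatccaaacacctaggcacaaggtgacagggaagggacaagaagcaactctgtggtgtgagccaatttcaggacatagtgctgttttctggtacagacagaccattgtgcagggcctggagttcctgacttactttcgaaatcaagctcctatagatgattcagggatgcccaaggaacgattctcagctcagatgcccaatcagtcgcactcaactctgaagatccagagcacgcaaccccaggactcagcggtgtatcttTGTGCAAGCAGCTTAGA
Trbv14: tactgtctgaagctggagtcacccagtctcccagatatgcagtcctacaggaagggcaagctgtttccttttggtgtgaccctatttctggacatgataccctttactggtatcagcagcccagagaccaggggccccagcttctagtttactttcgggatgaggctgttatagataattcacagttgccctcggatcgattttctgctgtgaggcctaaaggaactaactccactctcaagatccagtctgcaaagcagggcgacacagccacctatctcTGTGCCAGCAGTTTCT
Trbv12-2: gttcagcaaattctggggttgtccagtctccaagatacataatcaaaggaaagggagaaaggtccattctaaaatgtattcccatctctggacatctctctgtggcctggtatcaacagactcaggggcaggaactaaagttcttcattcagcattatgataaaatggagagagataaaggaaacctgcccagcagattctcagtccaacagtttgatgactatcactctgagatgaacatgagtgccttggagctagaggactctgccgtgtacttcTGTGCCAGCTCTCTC

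The alpha locus on chromosome 14 holds repeated blocks of nearly identical segments, of which Trav16 and Trav16n are shown as the example because both are members. Capitals mark the 4 bases that differ over the 301 bases of the exon. The stretch shown holds all 4 and spans chr14:53743445-53743665 for Trav16 and chr14:53351361-53351581 for Trav16n, both on the plus strand.
Trav16: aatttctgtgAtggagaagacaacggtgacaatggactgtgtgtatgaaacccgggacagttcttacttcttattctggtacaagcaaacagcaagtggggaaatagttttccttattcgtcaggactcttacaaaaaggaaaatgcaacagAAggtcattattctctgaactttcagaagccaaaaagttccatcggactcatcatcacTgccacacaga
Trav16n: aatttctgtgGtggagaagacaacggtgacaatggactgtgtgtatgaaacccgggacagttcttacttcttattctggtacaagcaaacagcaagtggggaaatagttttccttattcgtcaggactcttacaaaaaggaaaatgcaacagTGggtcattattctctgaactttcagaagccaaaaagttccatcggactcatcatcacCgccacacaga

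Such copies went with the counts. Of the 54 Trav genes without any UMI, 53 had a sequence, and 43 of these had another Trav exon at 98% identity or more, with a median identity of 100%. Among the 17 Trav members the same held for 5, and among the 16 Trbv members for 0. The count for Trav members depends on the cut, as their median identity of 97.5% lay just below it, while that of the Trbv members was 69.5%. All 9 Trbv genes without a UMI were annotated as pseudogenes, against 14 of the 54 Trav genes. How reads that fit several copies were counted is not given in the sources used here, and its part in the Trav counts was not tested. Values of single Trav segments are for this reason uncertain between copies, and an order of segments by UMIs or by calls describes what was captured, not transcript levels.

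Over all barcodes the Trbv genes held 662 UMIs in the C435A library and 458 in the wild-type library, and the Trav genes 586 and 648. The members accounted for 94.9% of the Trbv UMIs and 60.0% of the Trav UMIs. Trbv12-2 gave 100 and 75 UMIs, Trbv3 64 and 42, Trbv2 53 and 39, and Trbv16 67 and 24. Trav4-4-dv10, a segment that can also join to the delta chain, gave 35 and 40 UMIs. Just inside the threshold were Trav14-1 with 20 UMIs, Trav14-3 with 21 and Trbv26 with 23, and just outside it Trav13d-1 with 19, Trav7-5 and Trav13-4-dv7 with 18 each and Trbv17 with 17.

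**Figure D1:**
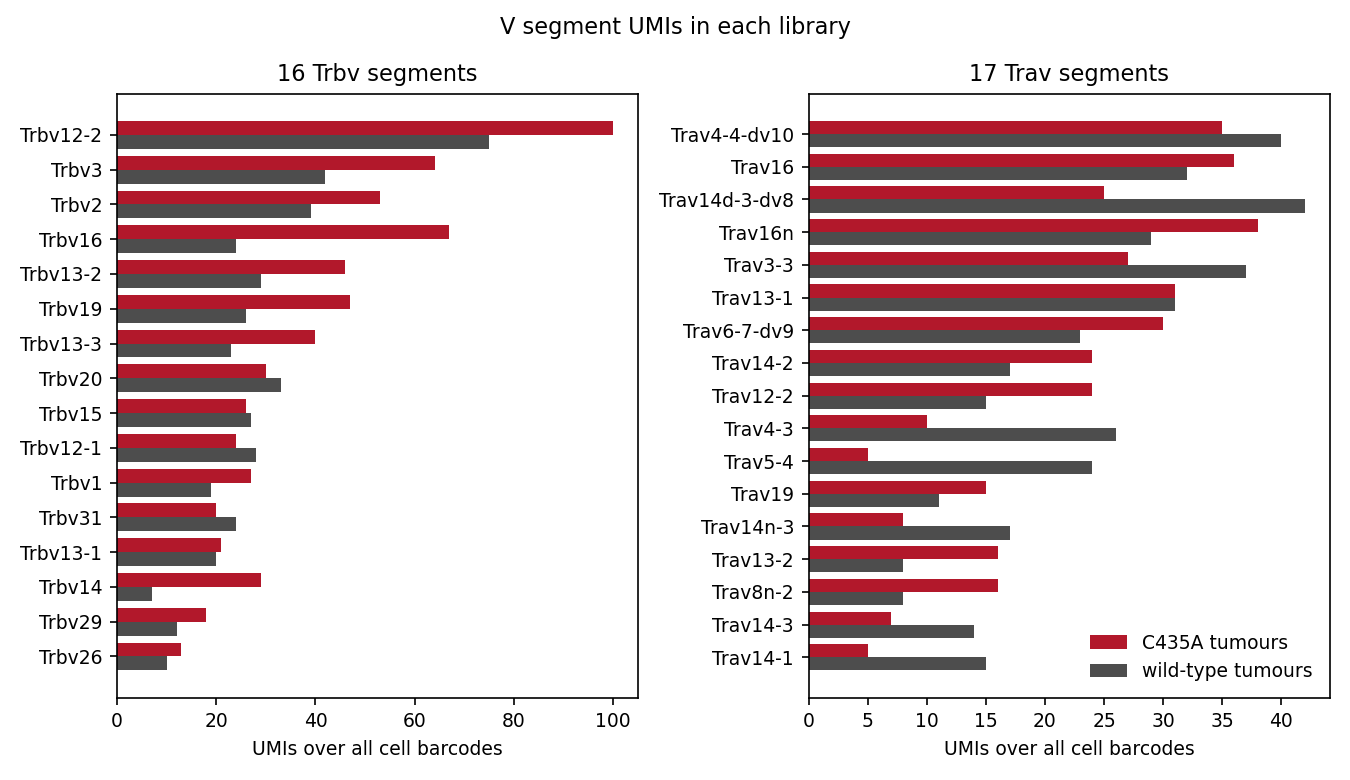
UMIs of the 16 Trbv and 17 Trav members over all cell barcodes (x axis) in the C435A library (red bars) and the wild-type library (grey bars). Trbv16 and Trbv14 stand out by the ratio of red to grey, 67 to 24 and 29 to 7 UMIs, while Trav5-4 has 5 and 24.

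The libraries held 10373 and 10156 barcodes (C435A first), of which 9427 and 9199 passed the filters and doublet removal, with 24 barcodes in common. Of the kept cells 4090 and 3924 met the T cell rule, with medians of 4035 and 2924 UMIs, and Trbc1 or Trbc2 was found in 97.9% or more of them. Transcripts of other cells were found too: 2 or more UMIs of the 6 myeloid markers occurred in 35.6% and 59.1% of these T cells and in 25.5% and 53.7% of B cells. Whether these came from free RNA or from doublets that were not removed was not tested. Lineage was set by Cd8a or Cd8b1 without Cd4 (CD8) or the reverse (CD4). State was set by summed marker UMIs: cycling at 3 or more UMIs of 12 cell cycle genes, otherwise effector or naive by the larger of 2 lists. The wild-type library also held 25 T cells with 2 or more UMIs of the recombination genes Rag1, Rag2, Dntt and Ptcra, against 1 in the C435A library. Of these 25 cells 12 had both Cd4 and Cd8 UMIs, 3 had a Trbv call and none of these was Trbv16.

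V segment UMIs were nearly confined to T cells. T cells held 97.3% of the Trbv and 96.0% of the Trav UMIs of all kept cells. A Trbv UMI was found in 11.8% of T cells of the C435A library (95% exact binomial interval 10.8 to 12.8) and in 9.07% of the wild-type library (8.19 to 10.0). In B cells, which should lack these transcripts and had medians of 2243 and 1969 UMIs, the shares were 0.0426% (1 of 2348 cells) and 0.108% (3 of 2775). These B cells were picked with 0 Cd3 UMIs, which favours a low share. All cells with B cell markers, whatever their Cd3 UMIs, had a Trbv UMI in 0.933% (25 of 2679) and 0.460% (14 of 3045), an alternative added after the values were seen. A Trav UMI was found in 9.07% and 10.2% of T cells and in 0.256% and 0.0360% of the B cells without Cd3, or 0.747% and 0.427% of all cells with B cell markers. Most cells with a UMI showed 1 segment: 21 of 483 and 13 of 356 cells had UMIs of 2 or more Trbv segments, and 13 of 371 and 22 of 399 of 2 or more Trav segments.

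These shares moved with depth. After each cell was thinned to 1000 UMIs, with 39 and 23 shallower T cells left out, Trbv was found in 2.74% and 3.31% of T cells, and the difference of C435A minus wild type moved from 2.74 percentage points (1.40 to 4.07) to -0.567 (-1.33 to 0.187). Trav was found in 1.88% and 3.64% of the thinned cells, a difference of -1.76 points (-2.50 to -1.05). Usage is therefore given below as shares of the cells with a call, the segment with strictly the most UMIs of its kind in a cell, so that a deep cell counts once. Deep cells were still called more often. In the C435A library 16.4% of cycling CD8 cells (median 9115 UMIs) and 8.32% of naive CD8 cells (median 2972) had a Trbv call. Usage over classes that join several states is thus weighted to the deeper cells.

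Relative to their own constant gene, alpha chain segments were fewer in the C435A library over all T cells and in each CD8 state. The same held for all CD4 cells together, while the intervals overlapped in each single CD4 state. Per 1000 UMIs of Trac, the alpha constant gene, T cells held 24.4 Trav UMIs (22.2 to 26.6) in the C435A library and 52.0 (47.8 to 56.5) in the wild-type library. Within CD8 cells the values were 39.0 and 63.8 in naive, 25.9 and 56.5 in effector and 19.96 and 38.5 in cycling cells. The intervals of the libraries did not overlap in each of these 3 classes. Per 1000 UMIs of the beta constant genes Trbc1 and Trbc2, the Trbv UMIs were 11.3 and 11.04 in naive, 8.69 and 9.48 in effector and 7.50 and 8.78 in cycling CD8 cells, with overlapping intervals. In CD4 cells the Trav UMIs per 1000 Trac were 33.6 and 55.2 in naive, 31.4 and 28.8 in effector and 18.1 and 30.6 in cycling cells, with overlapping intervals in each state. Their Trbv UMIs per 1000 Trbc UMIs were 5.26 (2.62 to 9.40) and 11.1 (8.38 to 14.5) in naive, 10.95 and 5.48 in effector and 10.7 and 4.87 in cycling cells, again with overlapping intervals. In CD8 naive cells the summed Trav level in CPM, the UMIs of a gene scaled to a fixed total of the class, was 27.9 and 44.2, a log2 ratio of C435A over wild type of -0.67 (-1.12 to -0.23), while Trac itself stood at 715 and 693 CPM, a log2 ratio of 0.04 (-0.05 to 0.13). In cycling CD8 cells it was Trac that differed, at 715 and 379.8 CPM, while Trav stood at 14.3 and 14.6 CPM with a log2 ratio of -0.04 (-0.67 to 0.66). Effector cells showed both, a Trav log2 ratio of -0.77 and a Trac log2 ratio of 0.35. In CD4 cells the summed Trbv level gave log2 ratios of -1.07 (-2.16 to -0.12) in naive, 1.70 (0.55 to 3.08) in effector and 1.77 (0.70 to 3.04) in cycling cells. These intervals left out 0, on 11 and 55, 50 and 7, and 64 and 8 UMIs. The levels were not recomputed without cells that also carried B cell or myeloid markers. Leaving such cells out kept 667 of 1009 and 28 of 100 cycling CD8 cells. The cause of the differences in level was not tested.

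**Figure D2:**
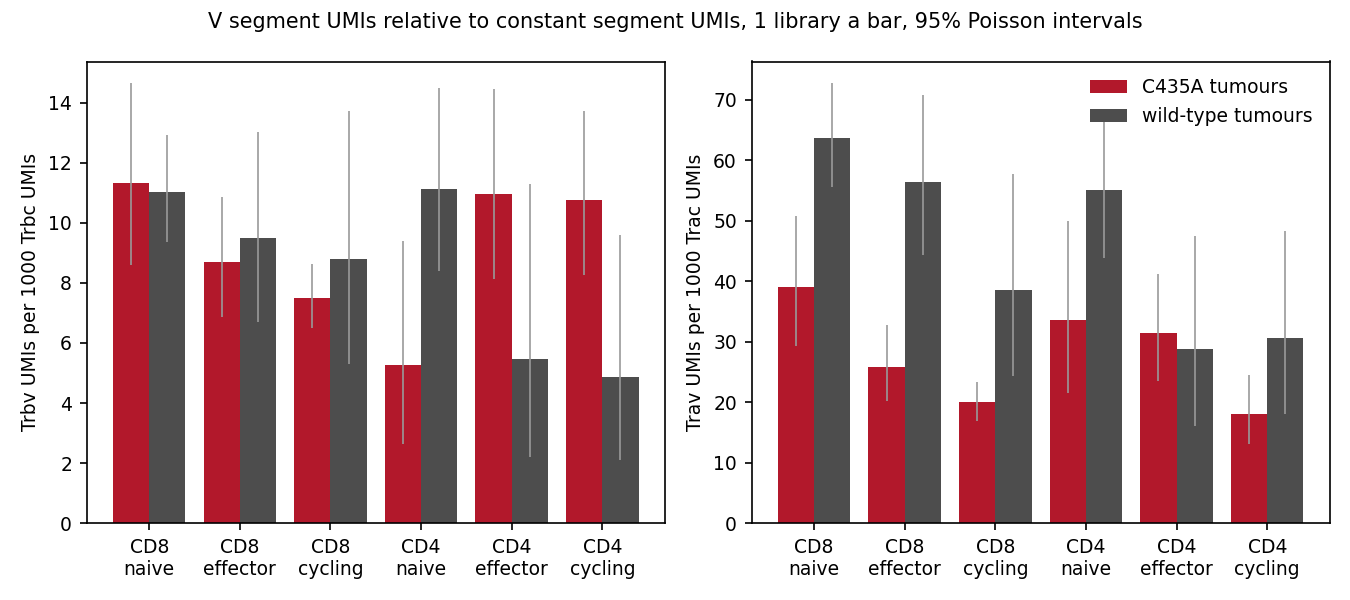
Trbv UMIs per 1000 Trbc1 and Trbc2 UMIs (left) and Trav UMIs per 1000 Trac UMIs (right) in 6 T cell classes of the C435A (red) and wild-type (grey) libraries, with 95% Poisson intervals that cover counting error only. In CD8 naive cells the Trbv bars are level at 11.3 and 11.04, while the Trav bars are 39.0 and 63.8.

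The kinds also differed in how their UMIs fell on cells. A called Trbv segment had 3 or more UMIs in 2 of 465 and 3 of 344 cells, with at most 3. A called Trav segment had 3 or more in 19 of 360 (5.28%) and 30 of 387 cells (7.75%), with up to 5 in the C435A and up to 11 in the wild-type library. Trav4-4-dv10 was the extreme among the members, with 39 UMIs in 10 called cells of the wild-type library and 20 in 11 of the C435A library. Its deepest cell was a CD8 naive cell with 11 UMIs of Trav4-4-dv10, 4 of Trac, 1 Trbv call (Trbv12-2) and 0 of Trdc, the delta constant gene. A segment total in UMIs can thus rest on few cells, which is why cells, not UMIs, are counted.

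In naive CD8 cells both libraries used the Trbv segments in much the same proportions. There were 51 calls in the C435A library and 132 in the wild-type library, from 613 and 1483 cells. Trbv12-2 led in both with 7 cells (13.7%) and 22 cells (16.7%), Trbv3 followed with 7 (13.7%) and 17 (12.9%), and Trbv16 was found in 3 (5.88%) and 7 cells (5.30%). Of 21 segments seen, 1 differed by 1.5-fold with an interval of the difference that left out 0 (4.76%, the share used as background): Trbv13-1 with 0 of 51 and 11 of 132 cells. The Morisita index of the Trbv counts, a likeness that is about 1 for samples of 1 common distribution, was 1.08 between the naive CD8 cells of the libraries, and 0.987 for Trav.

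Trbv16 was the leading segment of cycling CD8 cells in the C435A library. It was called in 37 of 165 cells, 22.4% (16.3 to 29.6), against 3 of 51 naive cells of the same library, 5.88% (1.23 to 16.2). The difference was 16.5 points (Newcombe interval 4.997 to 24.5). Against the naive CD8 cells of both libraries joined, where Trbv16 held 10 of 183 calls (5.46%, 2.65 to 9.82), a comparison added after the values were seen, it was 16.96 points (9.82 to 24.3). With T cells that also carried B cell or myeloid markers left out, Trbv16 held 20 of 95 cycling and 3 of 47 naive calls. The interval of the difference included 0 under 3 alternatives with fewer calls: 14.3 points (-0.0532 to 23.1) when effector and naive cells needed 2 times the markers of the other list, 11.8 (-12.6 to 34.2) after thinning and 18.75 (-31.7 to 43.0) for calls at 2 UMIs. Effector CD8 cells lay between, with 7 of 68 (10.3%), and their difference from naive cells of 4.41 points (-6.91 to 14.6) included 0.

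In the wild-type library Trbv16 was called in 1 of 15 cycling and 4 of 36 effector CD8 cells. Joining effector and cycling cells as activated cells, a class formed after the values were seen, gave 44 of 233 cells in the C435A library (18.9%, 14.1 to 24.5) and 5 of 51 in the wild-type library (9.80%). That difference of the activated cells between the libraries did not meet the call rule. The wild-type library had 100 cycling CD8 cells against 1009, and the size of the Trbv16 share among them is known only from 15 calls.

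**Figure D3:**
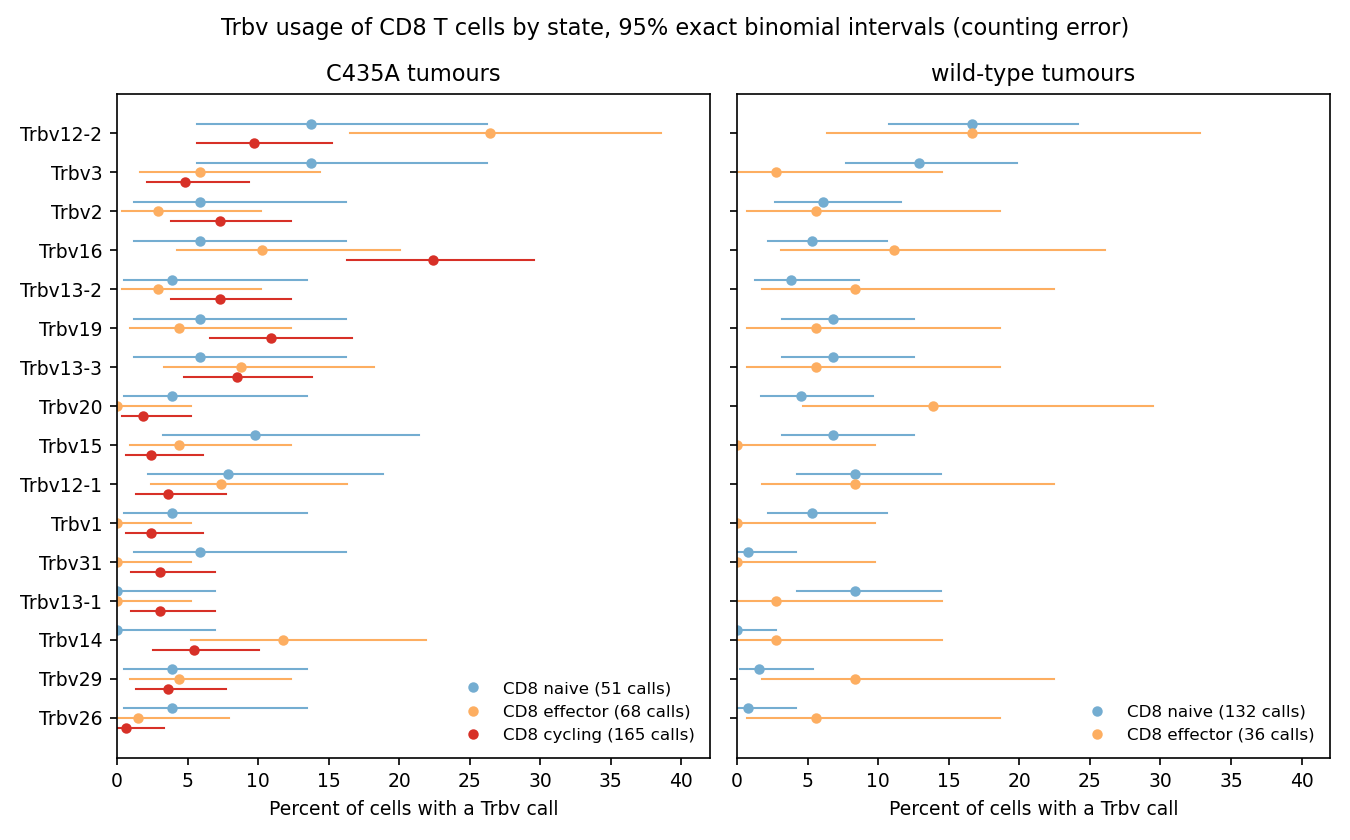
Share of Trbv calls (x axis, percent of cells with a call) held by each Trbv member in naive (blue), effector (orange) and cycling (red) CD8 cells of the C435A library (left) and the wild-type library (right, where cycling cells with 15 calls are not drawn), with 95% exact binomial intervals. Trbv16 in cycling cells of the C435A library is at 22.4%, to the right of its naive value of 5.88%, and Trbv12-2 in effector cells at 26.5%.

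Of 21 Trbv segments seen in cycling or naive CD8 cells of the C435A library, 3 were called (14.3%). Besides Trbv16 these were Trbv3, lower in cycling cells with 8 of 165 against 7 of 51 naive cells (-8.88 points, -21.1 to -0.667), and Trbv15, lower with 4 of 165 against 5 of 51 (-7.38 points, -18.7 to -0.747). The Trbv3 difference was not stable: its interval included 0 under 7 alternatives, among them -6.45 points (-19.3 to 3.14) without cells of 2 types and -7.21 (-19.1 to 0.662) with no doublets removed. Trbv15 was not recomputed under the alternatives. For effector against naive cells 1 of 20 segments was called (5.0%), and for activated against naive cells 3 of 23 (13.0%), again Trbv16, Trbv3 and Trbv15. In the wild-type library 0 of 22 segments was called between activated and naive CD8 cells (0.0%). Taken apart, its effector cells with 36 calls gave 2 of 22 (9.09%), Trbv20 and Trbv29, both higher than in naive cells. Its cycling cells with 15 calls gave 1 of 21 (4.76%), Trbv14, which was higher on 1 cell.

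The segment called in effector cells was Trbv14. It was found in 8 of 68 effector cells of the C435A library (11.8%) and in 0 of 51 naive cells, a difference of 11.8 points (2.75 to 21.5), or 8.33 points (-8.26 to 25.8) after thinning. Cycling cells added 9 of 165 (5.45%), so that 17 of 233 activated CD8 cells carried it. Trbv14 was also absent from the 132 calls of naive CD8 cells of the wild-type library, and 0 of 183 naive cells in both libraries allows a share of up to 1.64% by 3 counts of the total, or 1.996% by the exact binomial interval. The wild-type library held 2 Trbv14 cells among 51 activated CD8 calls. No Trbv14 call was made in CD4 cells, with 0 of 109 and 0 of 64.

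Trbv12-2, the leading segment of naive cells, took its largest share in effector CD8 cells of the C435A library, with 18 of 68 cells (26.5%, 16.5 to 38.6). In cycling cells it held 16 of 165 (9.70%). Its difference from naive cells was not called in either state, at 12.7 points (-2.26 to 26.2) and -4.03 points (-16.6 to 4.79). The effector and cycling CD8 cells of this library were less alike in Trbv than the naive cells of the libraries, with Morisita indices of 0.788 between them, 0.874 between effector and naive and 0.796 between cycling and naive cells. For the wild-type library the index of activated with naive CD8 cells was 0.952. Low values were not particular to CD8 cells. In CD4 cells of the C435A library the index with naive cells was 0.554 for cycling and 0.699 for effector cells, on 11 naive calls. For activated CD4 cells with naive CD4 cells it was 0.634 in the C435A and 0.792 in the wild-type library. The index has no interval here.

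Trav usage gave 0 called of 53 segments between cycling and naive CD8 cells of the C435A library (0.0%), with 111 and 43 calls. Trav16 was the most frequent in cycling cells with 12 of 111 calls, and Trav16n in naive cells with 7 of 43. With 43 naive calls spread over 27 Trav segments, most segments had 1 or 2 naive cells, and moderate differences were not detectable at this depth. For activated against naive CD8 cells of this library 2 of 60 were called (3.33%), both lower: Trav16n with 11 of 165 against 7 of 43 cells (-9.61 points, -23.6 to -0.105) and Trav8-2, which is not a member. In the wild-type library 0 of 56 were called for activated and 6 of 52 (11.5%) for cycling against naive CD8 cells. Those cycling cells had 13 Trav calls over 12 segments.

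Compared between the libraries, 3 of 26 Trbv segments were called over all T cells (11.5%). Trbv16 was higher in the C435A library with 54 of 465 against 17 of 344 calls (6.67 points, 2.83 to 10.4), as was Trbv14 with 17 of 465 against 4 of 344 (2.49 points, 0.246 to 4.73). Trbv20 was lower with 20 of 465 against 26 of 344 (-3.26 points, -6.87 to -0.00573), at the edge of the rule. Within CD8 cells 3 of 25 were called (12%). Trbv16 held 47 of 284 against 12 of 186 calls, a difference of 10.1 points (4.17 to 15.6), or 8.04 points (-2.29 to 19.005) after thinning. Lower in the C435A library were Trbv13-1 with 5 of 284 against 13 of 186 and Trbv20 with 5 of 284 against 12 of 186. The Trbv20 difference was -4.69 points (-9.29 to -1.13), and -2.77 (-8.35 to 0.675) without cells of 2 types. Trbv13-1 was the segment that already differed in naive cells, where 11 of the 13 wild-type cells lay. Among activated CD8 cells Trbv20 was the 1 called of 23 segments (4.35%), with 3 of 233 against 6 of 51 cells.

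The make-up of the CD8 cells differed between the libraries as well. Cycling cells were 1009 of 2403 CD8 cells in the C435A library and 100 of 2098 in the wild-type library, while naive cells were 613 and 1483. Of the Trbv calls of CD8 cells, cycling cells held 165 of 284 and 15 of 186. Within naive cells Trbv16 was at 5.88% and 5.30%, and the part of the state make-up in the CD8 difference was not tested. The genotype and the single library of each group cannot be told apart.

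**Figure D4:**
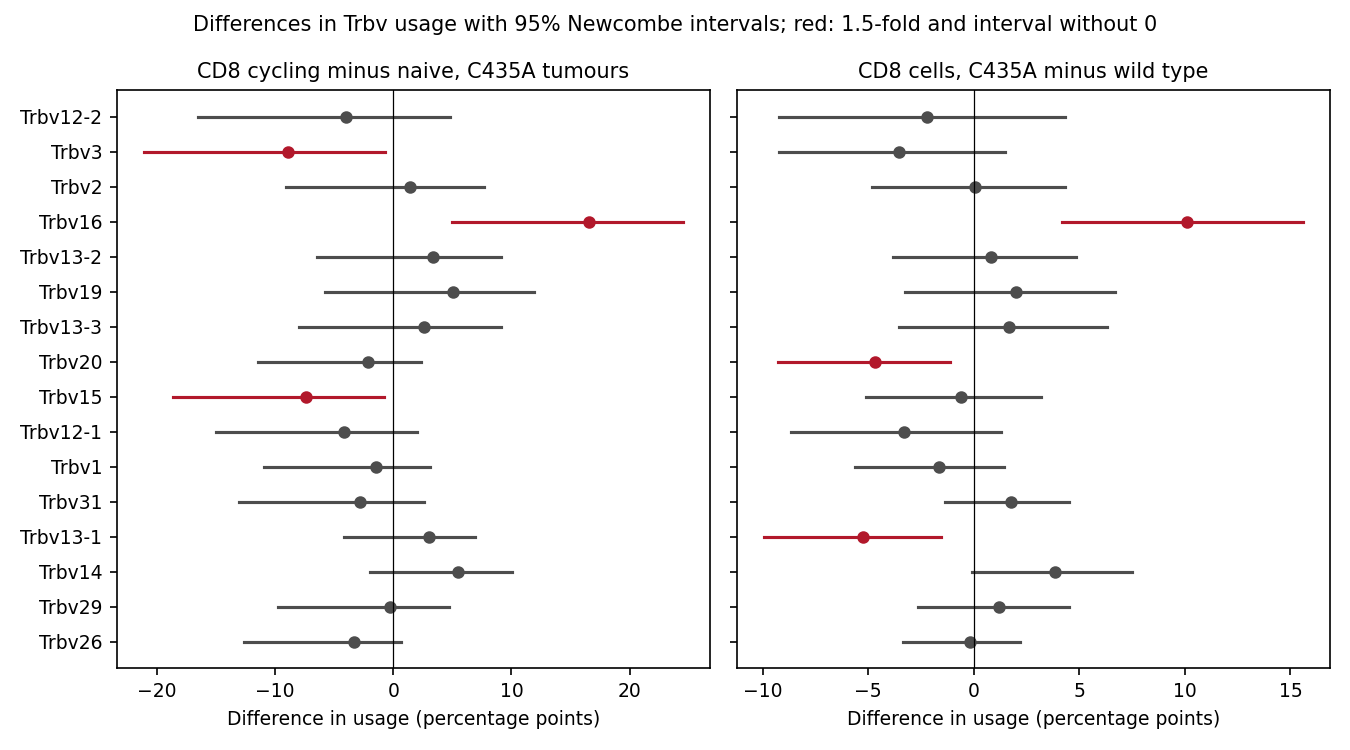
Differences in Trbv usage (x axis, percentage points) between cycling and naive CD8 cells of the C435A library (left) and between CD8 cells of the C435A and wild-type libraries (right), with 95% Newcombe intervals; red marks segments at 1.5-fold or more with an interval that leaves out 0. Trbv16 is the only red point right of 0 in either panel, at 16.5 and 10.1 points.

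Among Trav segments 1 of 75 was called over all T cells (1.33%): Trav5-4, with 3 of 360 calls in the C435A and 13 of 387 in the wild-type library. It was also the 1 called of 66 in CD8 cells (1.52%), with 1 of 210 and 7 of 213. In activated CD8 cells 2 of 57 were called (3.51%), Trav5-4 with 1 of 165 and 3 of 59 calls and Trav8-2, both lower. In CD4 cells 2 of 58 were called (3.45%), Trav14d-3-dv8 with 2 of 91 against 12 of 88 and Trav14-1 with 1 of 91 against 7 of 88. All of these Trav calls were lower in the C435A library. For Trbv in CD4 cells 0 of 20 were called (0.0%), and among the members the largest gap was that of Trbv3, with 16 of 109 against 4 of 64 calls (8.43 points, -1.87 to 17.1).

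Within the C435A library the high Trbv16 share was found in CD8 and not in CD4 cells. Activated CD4 cells of the C435A library held Trbv16 in 2 of 97 calls, against 44 of 233 in activated CD8 cells, a difference of 16.8 points (9.98 to 22.5). In this comparison, added after the values were seen, 5 of 22 Trbv segments were called (22.7%). Trbv14 was the other one higher in CD8 cells, with 17 of 233 against 0 of 97. Higher in CD4 cells were Trbv3 with 16 of 97 against 12 of 233, Trbv20 with 9 of 97 against 3 of 233 and Trbv1 with 8 of 97 against 4 of 233. Of 62 Trav segments 3 were called (4.84%), among them Trav16 with 14 of 165 activated CD8 and 0 of 73 activated CD4 cells. Against the 11 naive CD4 calls of the C435A library, 2 of 19 Trbv segments were called for activated CD4 cells (10.5%). Cycling CD4 cells gave 1 of 18 (5.56%) and effector CD4 cells 1 of 14 (7.14%). All were lower, Trbv31 each time and Trbv13-1 in activated cells. In the wild-type library cycling CD4 cells, with 8 calls, gave 2 of 18 (11.1%), Trbv15 and Trbv16, both higher than in naive cells.

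The segments called between the lineages were others in naive cells of both libraries joined than in activated cells of the C435A library. In the naive cells 2 of 23 Trbv segments were called (8.7%), Trbv31 with 4 of 183 CD8 against 9 of 60 CD4 calls (-12.8 points, -24.0 to -5.16) and Trbv2 with 11 of 183 against 9 of 60 (-8.99 points, -20.4 to -0.787). With 60 naive CD4 calls, a segment that was not called may still differ. Trbv20 was not called but went the same way as in activated cells, with 8 of 183 CD8 and 5 of 60 CD4 calls. In activated cells of the C435A library Trbv31 was at 2.15% of CD8 and 2.06% of CD4 calls. Trbv3 went the other way in naive cells, with 24 of 183 CD8 and 4 of 60 CD4 calls. Trbv16 held 10 of 183 naive CD8 and 2 of 60 naive CD4 calls. Trbv31, which lies in inverse orientation downstream of the beta constant genes, was the most frequent segment of the 11 naive CD4 calls of the C435A library with 3 cells, and held 6 of 49 in the wild-type library.

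The concentration of usage, the chance that 2 cells of a class carry the same Trbv segment, did not separate the states beyond its intervals. In the C435A library it was 6.12% (3.48 to 8.75) in naive, 10.8% (6.37 to 15.3) in effector and 9.55% (7.31 to 11.8) in cycling CD8 cells, equal to 16.3, 9.22 and 10.5 equally used segments. The naive CD8 cells of the wild-type library stood at 7.91% (6.23 to 9.59), inside the interval of the cycling cells. With Trbv16 left out, an alternative added after the values were seen, cycling cells of the C435A library were at 7.70% (6.20 to 9.21). Activated CD8 cells had 9.03% (7.47 to 10.6) and 6.98% (3.92 to 10.0) in the C435A and wild-type libraries. For Trav the chance was 3.41% in cycling cells of the C435A library and 2.53% in naive cells of the wild-type library.

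**Figure D5:**
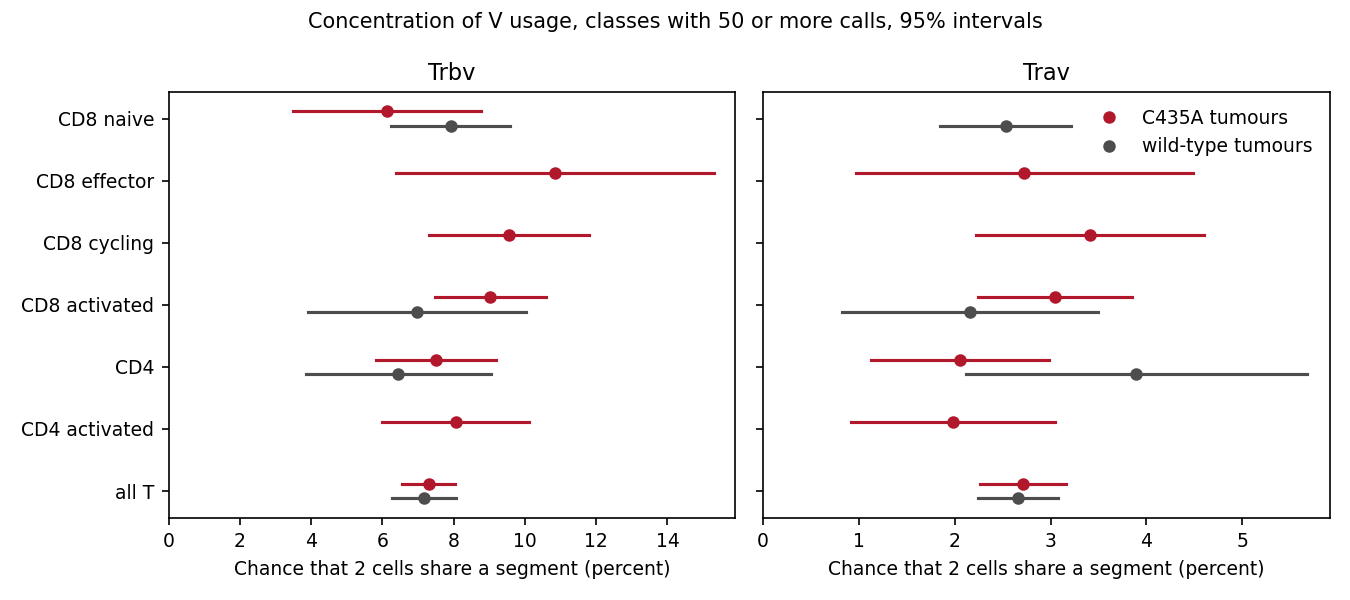
Chance that 2 cells of a class share their called Trbv (left) or Trav (right) segment, in percent (x axis), for classes with 50 or more calls in the C435A (red) and wild-type (grey) libraries, with 95% intervals. The intervals of naive, effector and cycling CD8 cells overlap for Trbv, from 6.12% in naive to 10.8% in effector cells of the C435A library.

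The constant genes were read in the same cells. A rearranged beta chain joins either Trbc1 or Trbc2, so the cells of 1 clone share it. Cells were split by whether Trbc1 made over 20% of at least 5 Trbc UMIs, a cut chosen after seeing the values. Of CD8 cells, Trbc1 was present by this cut in 47.6% and 46.4% of naive, 45.8% and 45.0% of effector, and 42.4% (39.2 to 45.6) and 40.0% of cycling cells of the C435A and wild-type libraries. Of the 37 cycling Trbv16 cells of the C435A library 13 lay above and 24 at or below the cut, and 4 lay near it, at 10 to 30%. The 16 activated Trbv14 cells with enough UMIs split into 7 and 9. The 18 Trbv12-2 effector cells split into 5 and 13. The Trbc1 share of the T cells of both libraries with enough UMIs had a second, lower peak but no gap. There were 2632 cells at 0 to 10%, 611 at 10 to 20% and 473 at 20 to 30%. The count fell to 347 at 30 to 40%, rose to 553 at 50 to 60% and was 164 at 90 to 100%. The cut at 20% lay below that minimum. With many cells between the peaks, the split does not assign a constant gene to each cell or count clones.

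Cells with both a Trav and a Trbv call numbered 39 and 45. The 39 of the C435A library held 39 distinct pairs, and the 45 of the wild-type library 43, where Trav14-1 with Trbv20 and Trav14d-3-dv8 with Trbv2 were each seen in 2 cells. All 21 CD8 cells of the C435A library with both calls had different pairs. With so few paired cells a repeated clone could go unseen.

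Of the activated CD8 cells of the C435A library, 37 of 44 that carried Trbv16 were cycling, 9 of 17 of Trbv14, 16 of 34 of Trbv12-2 and 103 of 138 of all other Trbv. This restates the shares by which the segments were singled out and supports nothing further. Their levels of Gzmb, the killer protease granzyme B, were 1285 CPM for Trbv16, 1160 for Trbv14, 756 for Trbv12-2 and 1213 for the others. Gzma stood at 2886, 2407, 3962 and 3526 CPM in the same order. Gzmb and Gzma are in the list that defined the effector state, these sums come from few cells of 1 library, and the differences were not tested.

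As CPM over all T cells, 10.4% of 15046 genes with 20 or more UMIs were higher and 21.2% lower in the C435A library by 1.5-fold, whatever their interval. Of the 15 Trbv members with enough UMIs 2 were higher, Trbv16 with 60 and 21 UMIs (log2 ratio 0.95, 0.21 to 1.74) and Trbv14 with 21 and 4 (1.83, 0.26 to 3.83), and 5 were lower by fold alone. All 5 (Trbv12-1, Trbv13-1, Trbv15, Trbv20 and Trbv31) had intervals that included 0, such as Trbv31 at -0.64 (-1.62 to 0.34). Of 15 Trav members 0 were higher and 7 lower, with Trav5-4 at 5 and 23 UMIs the lowest (-2.77, -4.52 to -1.34), and among these 7 Trav13-1 had an interval that included 0 (-0.80, -1.66 to 0.06). Trbv14 and Trav5-4 each reached 20 UMIs only through the library where they were higher, so their ratios are no independent support. The median log2 ratio was -0.18 for the Trbv and -0.38 for the Trav members, beside -0.10 for all genes.

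Over all T cells the other chains of the receptor did not pass the fold by this measure, but in cycling cells they did, and in effector cells some did. The constant genes Trac, Trbc1 and Trbc2 and the chains Cd3d, Cd3e, Cd3g and Cd247, the zeta chain that signals into the cell, gave 0 of 7 genes past 1.5-fold over all T cells. In CD8 cycling cells all 3 constant genes and all 4 CD3 and zeta chains were higher in the C435A library, with median log2 ratios of 0.81 and 0.88, and so they were in CD4 cycling cells, at 0.67 and 0.75. Leaving out cells that also carried B cell or myeloid markers kept 667 of 1009 and 28 of 100 cycling CD8 cells. These levels were not recomputed without such cells. Of the 15 signalling genes 10 were higher and 2 lower in CD8 cycling cells, and 12 and 1 in CD4 cycling cells. In CD8 naive cells 0 were higher and 1 was lower. Over all genes 15.9%, 15.4% and 6.22% were higher in these 3 classes, and 22.8%, 16.0% and 7.16% lower. In CD4 effector cells 1 constant gene, 3 of the 4 CD3 and zeta chains and 5 signalling genes were higher, and 1 signalling gene lower. In CD8 effector cells 1 of these 4 chains and 2 signalling genes were higher, and 2 signalling genes lower. Over all genes 14.1% and 7.07% were higher in CD4 and CD8 effector cells, and 15.4% and 15.7% lower. In CD4 naive cells 4 signalling genes were higher and 0 lower, beside 11.2% and 9.8% of all genes. With 15 signalling genes, such counts were not tested against these shares. Over all T cells Cd28, the costimulatory receptor, was higher at 325 and 181 CPM and Fyn, a kinase of the receptor, at 259 and 166 CPM, while Egr2, a transcription factor induced by receptor signals, was lower at 6.71 and 12.4 CPM. The recombination genes were lower, Rag1 with 1 and 45 UMIs, Dntt with 14 and 153 and Ptcra with 22 and 33. Joining segments could not be compared, as 0 of 74 reached 20 UMIs.

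Segments of innate-like T cells were rare. Trav11 and its copy Trav11n, which make the invariant chain of natural killer T cells, were called in 1 and 3 of 360 cells of the C435A library and in 1 and 2 of 387 of the wild-type library. Trav1, the segment of mucosal-associated invariant T cells, was called in 2 and 1 cells. None of these 10 cells had a UMI of Zbtb16, the transcription factor that marks both types, but Zbtb16 was detected in only 47 of 4090 and 36 of 3924 T cells. Trdc at 2 or more UMIs marked 51 and 80 T cells, of which 3 and 3 had a Trbv call (5.88% and 3.75%), against 11.5% and 8.84% of T cells without Trdc. Of the 5 Trav calls in such cells of each library, 4 and 2 were segments named for use in the delta chain as well, against 16.5% and 18.8% of the Trav calls in cells without Trdc.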

How the data were processed

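The deposited values are raw UMI counts per gene and cell, 1 matrix per library, made with Cell Ranger 7.2.0 per the file headers and on GRCm38 per the submitters' processing notes. The annotation release, the intron setting and the handling of multiply mapped reads are not stated in the labels or file headers. The labels name both the BD Rhapsody system and a 10x Chromium 3′ kit for the same cells. Cells needed 200 genes, 500 UMIs and at most 20% mitochondrial UMIs, and the 844 and 800 cells with the highest Scrublet scores (scanpy 1.11.5) were removed as doublets, at an expected rate of 0.8% per 1000 cells. A V call is the segment with strictly the most UMIs of its kind in a T cell. Usage is the share of called cells, with exact binomial intervals and Newcombe intervals for differences. A difference was called at 1.5-fold with a 95% interval that left out 0, and libraries were compared only with 50 or more called cells each. Levels are summed UMIs scaled per class, with exact conditional intervals, and TMM factors from edgeR 4.0.16 were an alternative. Concentration is the unbiased Simpson index. All intervals cover counting error only, since each genotype is 1 library. Segments were named from the 3 most used of each kind per CD8 or CD4 state, up to 3 called in each direction of a comparison, repeated pairs, Trav11, Trav1 and those next to the threshold. Others named were chosen after their values were seen, as were the activated class, CD8 against CD4 cells, the joined naive cells and the Trbc1 split. The members and lists were chosen with earlier results of these data known. The interval methods were tested on simulated data with independently drawn cells and counts. That test does not cover cells of 1 clone or a spread between libraries.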

Additional observations from a re-analysis of the deposited data

How the results depend on the processing

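The results were recomputed under 181 combinations of result and alternative, and 167 were counted as unchanged. Results with a counting interval then kept their direction and moved by less than that interval. Counts of segments or genes and the Morisita indices have no interval and were not judged by one. Some combinations could not change: stricter cycling, effector or naive classes leave usage over all CD8 cells as it was. There C435A minus wild type stayed at 10.1 points for Trbv16 and -4.69 for Trbv20. The 167 thus include combinations that tested nothing. Trbv16 in cycling minus naive CD8 cells of the C435A library lay between 11.8 and 18.8 points in the alternatives run, with an interval that included 0 in 3 of them (stricter effector and naive classes, thinning and calls at 2 UMIs). Without cells of 2 types, and after thinning, 2 and not 3 Trbv segments were called between the libraries in CD8 cells. A V call at 2 UMIs left 34 and 21 Trbv calls over all T cells. There the difference in the share of T cells with a Trbv call became 0.296 points, Trbv16 in CD8 cells between the libraries became -4.55 points (3 of 22 against 2 of 11 calls), Trbv20 became 0.0 and Trbv14 in effector minus naive cells 50 points (2 and 4 calls). Under the same setting the Trbv concentration of naive CD8 cells was 0.0% and 11.1% in the C435A and wild-type libraries, and the Morisita index was 3.5 between them and 1.25 between cycling and naive cells. Thinning to 1000 UMIs moved the difference in called T cells to -0.541 points and Trbv20 in CD8 cells to -0.922 points. With median ratio factors 4 members were higher in the C435A library and 5 signalling genes passed the fold, and with genes of 50 UMIs or more 1 member was higher and 5 were lower, against 2 and 12 as reported. Calls at 2 UMIs and thinned cells are few, which limits these alternatives. No paired analysis was possible because each group is 1 library. The numbers of mice, the junctions and so the clones were not analysed here.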
